A study of Rattus norvegicus with 9 samples.

Results

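The AP-1 subunit genes of the Fos family (Fos, Fosb, Fosl1, Fosl2), of the Jun family (Jun, Junb, Jund) and the related factor Atf3 were examined in cardiac RNA of HF rats. They were looked up by gene symbol, 8 in all, in 2 deposited tables that together list 5760 genes. Of the 8, 7 are listed in either table, 5 of them in both. Fosl2 and Atf3 are listed in the second table alone, and Jun is listed in neither, so no value of Jun was analysed here. A gene is listed where the authors' own test gave it an adjusted p under 0.05 between the same libraries. Every listed member had therefore already been picked as different, and the tests below describe its size and spread and cannot serve as independent evidence that it differs.

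AP-1 is a dimeric transcription factor whose subunits pair through a leucine zipper and bind DNA through a basic region, a fold called bZIP. Jun proteins can pair with one another or with Fos proteins, whereas Fos proteins need a Jun partner, so the makeup of the subunits sets which dimers can form. Most of these genes are immediate early genes, transcribed within minutes of growth factor, cytokine, stretch or ischemic signals, mainly through MAP kinases and serum response factor. In the heart they are known as early markers of hemodynamic load and injury.

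Hearts came from 9 male Sprague-Dawley rats, 3 in each of 3 groups. Sham rats, the Control group of the labels, had surgery without ligation and were given distilled water. Model rats had the left anterior descending coronary artery ligated to induce HF and also received distilled water. Cal rats had the same ligation and received calycosin (Cal), an isoflavone of Astragalus, by mouth at 80 mg/kg per day, and dosing of all groups started the day after surgery and lasted 28 days. The RNA was of bulk heart tissue, in which fewer cells of a type and less RNA per cell cannot be told apart.

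The headings in the tables contradict each other, which touches every direction below. Libraries are called here by the heading of their own sample column. In the first table, however, the column of means headed Cal averages the 3 libraries headed Model in 100% of genes, and the column of means headed Model averages those headed Cal. The second table was deposited as a comparison of Model with Con, yet its sample columns are headed Cal and Con. Its means headed Model likewise average the libraries headed Cal, so its title goes with its mean columns. By the mean columns, the libraries headed Cal would be the ligated rats without drug and those headed Model the Cal-treated rats. Con stands for the sham rats under either naming. The study drew the 3 rats of a group at random from a larger one.

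Values are normalized counts, that is, a gene's reads after division by the size factor of its library, and the authors scaled the 2 tables apart from each other. The libraries headed Cal had the same reads in both tables for 986 of 986 shared genes, so Con values could be set on the scale of the first table by a factor of 0.894, and this scale is used where 9 libraries are set side by side. Reads on the listed genes ranged from 2860826 to 3998471 per library in the first table and from 3270460 to 4659882 in the second. Full depth is unknown because other genes were not used here. Log2 fold changes are differences on the log2(normalized count + 1) scale, so the change of weakly expressed genes is understated. Their p-values come from limma, adjusted by the Benjamini-Hochberg method over all listed genes of a table.

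Relative to the libraries headed Con, the 7 listed subunits were higher in the libraries headed Cal, from 2.19-fold for Jund to 18.5-fold for Fosb in the ratio of means (n = 3 each). Relative to the libraries headed Model, Fosb, Jund and Fos were higher in those headed Cal by 19.6-fold, 3.65-fold and 2.48-fold, while Fosl1 was lower there. A gene is said to be called where the adjusted p was below 0.05 and the log2 fold change was larger than 1 in size. In Cal over Con 7 of 7 members were called, each higher in Cal, where 29.0% of the 2458 listed genes were called (18.0% higher and 10.9% lower). In Cal over Model 3 of 5 members were called, each higher in Cal, where 60.1% of the 4288 listed genes were called (28.4% higher and 31.6% lower). With no fold change limit 7 of 7 and 5 of 5 members passed, as did 99.8% and 99.6% of listed genes. Another scaling shifted the balance of calls, since the 443 higher and 269 lower calls in Cal over Con became 342 and 447 under median-ratio scaling and the 1219 and 1356 in Cal over Model became 1646 and 1047, but no member changed direction. The median log2 fold change of the members was 2.81 in Cal over Con, against 0.37 for all listed genes, and 1.39 in Cal over Model, against -0.52. In each of these member comparisons the groups did not overlap, as for 97.4% of listed genes in the second table and 98.2% in the first, and the two-sided exact permutation p was 0.1 for each, the smallest that 3 against 3 can give. The plot of members by library shows these values.

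**Figure D1:**
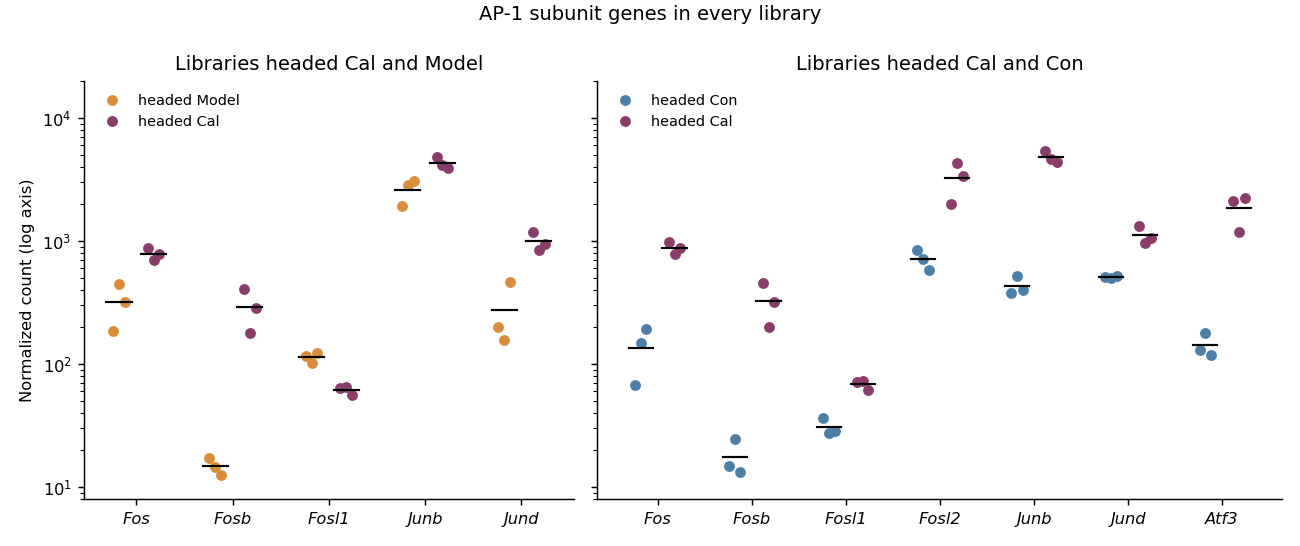
Normalized counts (log axis) of the listed AP-1 subunit genes in every library of the first table (left, libraries headed Model and Cal) and the second table (right, libraries headed Con and Cal), with a black bar at each group mean of 3 libraries. The libraries headed Cal sit above the other group for each gene apart from Fosl1 on the left, where they lie at 55.5 to 64.8 against 102 to 124 in the libraries headed Model.

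Fos, the prototype subunit that pairs with Jun proteins, has the identifier ENSMUSG00000021250 and the position chromosome 12, 85473890 to 85477273, plus strand. Identifiers and positions are given as deposited and are those of the mouse, with no build named. On the common scale its normalized counts were 60.0, 132 and 173 in the libraries headed Con, 186, 446 and 320.1 in those headed Model and 874, 695 and 788 in those headed Cal. The 3 groups formed separate, rising steps with no overlap, although the highest Con library and the lowest Model library were close, at 173 and 186. Cal exceeded Model by a log2 fold change of 1.39 (standard error 0.30, limma adjusted p = 0.00423) and Con by 2.81 (standard error 0.34, limma adjusted p = 0.000265). Fos varied more within the Con and Model groups than within Cal, with coefficients of variation of 47.0%, 41.1% and 11.4%.

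Fosb, a paralog of Fos whose spliced form ΔFosB is known for its stability, lies on chromosome 7 from 19302696 to 19310051 on the minus strand (ENSMUSG00000003545). Its normalized counts were 13.3, 22.0 and 11.8 in the libraries headed Con, 17.3, 14.6 and 12.5 in those headed Model and 404, 179 and 288 in those headed Cal. Con and Model overlapped at a low level, with 13 to 25 and 12 to 16 reads per library, and the libraries headed Cal stood apart with 191 to 438 reads. Cal stood above Model by a log2 fold change of 4.14 (standard error 0.33, limma adjusted p = 0.000158), rank 15 of the 4288 listed genes from the top, or from the bottom if the mean columns name the groups, and above Con by 4.11 (standard error 0.34, limma adjusted p = 2.88e-05), rank 52 of 2458. The deposited values are per gene, so the spliced forms were not separated.

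Fosl1 encodes Fra-1, a Fos protein without the strong activation domain of Fos, and lies on chromosome 19 from 5447703 to 5455945 on the plus strand (ENSMUSG00000024912). Its normalized counts were 32.5, 24.6 and 25.3 in the libraries headed Con, 116, 102 and 124 in those headed Model and 63.6, 64.8 and 55.5 in those headed Cal. It was the 1 member of the 5 on the common scale with its highest level in the libraries headed Model, and the 3 groups did not overlap. Fosl1 had a log2 fold change of -0.88 in Cal over Model (standard error 0.19, limma adjusted p = 0.00443), short of the limit of 1, and of 1.14 in Cal over Con (standard error 0.22, limma adjusted p = 0.00221). The call against Con ended under a pseudocount of 10 (0.95) and under median-ratio scaling (0.86), and that against Model was made under quantile normalization (-1.004). Fosl1 had the smallest spread of the members within Cal, with a coefficient of variation of 8.24%.

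Fosl2 encodes Fra-2, a Fos protein linked to fibroblast activation and fibrosis, and lies on chromosome 5 from 32135801 to 32157842 on the plus strand (ENSMUSG00000029135). It is listed in the second table, with normalized counts of 839, 708 and 577 in the libraries headed Con and 2011, 4305 and 3397 in those headed Cal. The library headed Cal 1 was the lowest of its group for Fosl2 while it was the highest for Fos, Fosb, Junb and Jund. Fosl2 had a log2 fold change of 2.14 in Cal over Con (standard error 0.26, limma adjusted p = 0.00028).

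Junb encodes a Jun protein that often restrains the activity of Jun, and lies on chromosome 8 from 84974484 to 84978718 on the minus strand (ENSMUSG00000052837). Its normalized counts were 337, 466 and 357 in the libraries headed Con, 1918, 2882 and 3059 in those headed Model and 4827, 4152 and 3939.6 in those headed Cal. The groups formed 3 separate steps, with the wider gap between Con and Model. Junb had a log2 fold change of 3.48 in Cal over Con (standard error 0.14, limma adjusted p = 7.79e-07), the lowest adjusted p among the members, and of 0.74 in Cal over Model (standard error 0.20, limma adjusted p = 0.00979). The second difference was not called, but quantile normalization took it to 1.38 and median-ratio scaling to 1.04, both past the limit.

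Jund encodes the Jun protein that resting cells already hold, and lies on chromosome 8 from 70698949 to 70700616 on the plus strand (ENSMUSG00000071076). Its normalized counts were 454, 445 and 468 in the libraries headed Con, 199, 157 and 462 in those headed Model and 1183, 853 and 953 in those headed Cal. The Con libraries hardly differed among themselves, with a coefficient of variation of 2.50%, while in the Model group the library headed Model 3 stood at the Con level and the other 2 below it, a coefficient of variation of 60.6%. Jund in Cal exceeded Model by a log2 fold change of 2.01 (standard error 0.38, limma adjusted p = 0.00241) and Con by 1.11 (standard error 0.13, limma adjusted p = 0.000211). The call against Con ended under quantile normalization (0.75), under median-ratio scaling (0.83) and without the library headed Cal 1 (0.98), with the direction kept in each.

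The order of Junb and Jund, the listed Jun genes, in level per kilobase was turned between Con and Cal. A link of this order to promoter letters was not tested, and the promoters of both genes are shown as background only. They are given as in RefSeq for the rat assembly GRCr8, from 250 bases before to 50 bases after the annotated start, 5′ to 3′ on the gene's strand. Promoter windows were found for 5 of the 8 members (Fosb, Fosl1, Fosl2, Junb and Jund). Capitals mark letters that match a searched motif. The Junb window (chr19:40080876-40081175, plus strand) holds TATAAA, the TATA box, with its first base at position -49 from the start. The Jund window (chr16:18769722-18770021, minus strand) holds TGACGTCA, the cAMP response element bound by Jun, ATF and CREB proteins, with its first base at position -221.
Junb: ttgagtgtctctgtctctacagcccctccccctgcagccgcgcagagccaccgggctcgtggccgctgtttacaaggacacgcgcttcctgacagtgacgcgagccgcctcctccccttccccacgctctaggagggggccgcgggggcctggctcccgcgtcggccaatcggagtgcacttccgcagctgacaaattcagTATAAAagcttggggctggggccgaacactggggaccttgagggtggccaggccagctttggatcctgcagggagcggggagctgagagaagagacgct
Jund: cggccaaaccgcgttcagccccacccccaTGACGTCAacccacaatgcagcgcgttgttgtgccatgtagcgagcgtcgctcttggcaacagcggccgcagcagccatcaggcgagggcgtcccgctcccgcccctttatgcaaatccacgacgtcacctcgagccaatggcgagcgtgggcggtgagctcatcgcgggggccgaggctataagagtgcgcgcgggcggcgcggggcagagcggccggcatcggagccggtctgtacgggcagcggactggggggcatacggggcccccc

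The motifs were searched on both strands as TGACGTCA, as TGANTCA (the AP-1 site), as TATAAA and as the CArG box of serum response factor, and no string of letters is a copy of both of the first 2. Among all 33469 promoter windows of 300 bases, TGACGTCA was found in 1.83%, TGANTCA in 7.33%, TATAAA in 14.2% and the CArG box in 1.64%. Among the 5 members TGACGTCA was found in Jund alone, TATAAA in Junb and, on the opposite strand, in Fosb, and neither TGANTCA nor the CArG box in any. A match is a string of letters and not a measured binding site.

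Atf3 encodes a stress-induced bZIP factor that pairs with Jun proteins and represses many inflammatory genes, and lies on chromosome 1 from 191170296 to 191218039 on the minus strand (ENSMUSG00000026628). In the second table its normalized counts were 130.5, 178 and 117 in the libraries headed Con and 2127, 1183 and 2247 in those headed Cal. Each Cal library was several times above each Con library, and the ratio of means was 13.1. Atf3 had a log2 fold change of 3.66 in Cal over Con (standard error 0.26, limma adjusted p = 1.22e-05). No other listed gene overlaps the position of any of the 7 members.

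Set on one scale, the 5 subunits listed in both tables did not follow a common order of groups. Model over Con, for which no test was made because the tables were normalized separately, gave log2 differences of 2.74 for Junb, 2.02 for Fosl1 and 1.42 for Fos, with no overlap of the 3 libraries against 3. For Fosb it was -0.04 and for Jund -0.90, with overlapping groups. So Fos and Junb stepped up from Con to Model to Cal, Fosl1 had its highest level in Model, Fosb was high in Cal alone, and the mean of Jund was lowest in Model and highest in Cal. The plot of the 5 subunits on one scale shows these orders. How many of all 986 shared genes lack an overlap between Model and Con was not counted. The separation of single members therefore has no background share beside it and cannot be read as particular to them. By the mean columns, the steps named Model and Cal exchange names.

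**Figure D2:**
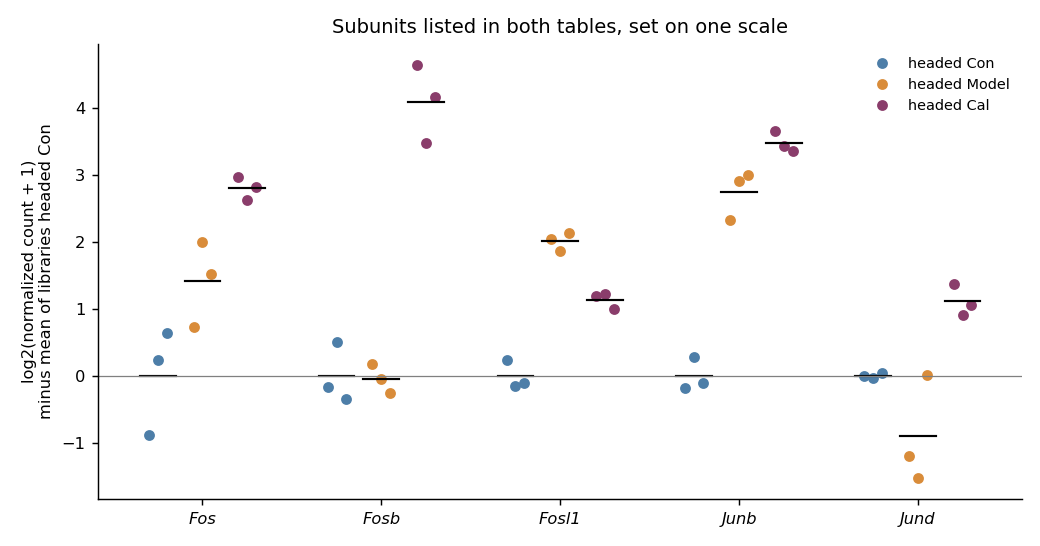
Difference in log2(normalized count + 1) from the mean of the libraries headed Con, per library, for the 5 subunits listed in both tables, with bars at the mean of 3 libraries. Fosb in Model lies at the Con level (-0.04), Fosl1 is highest in Model (2.02) and Jund in Model reaches from below Con up to the Con level.

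The plot of members among all listed genes places each subunit within the whole table. Below Fosb lay 99.7% of the listed genes in Cal over Model and 97.9% in Cal over Con, whereas for Fosl1 these shares were 35.0% and 84.1%. Under the naming of the mean columns the comparison of Cal with Model is turned, and the share below would be 0.33% for Fosb and 65.0% for Fosl1, while the comparison with Con keeps its direction. Few listed genes lie near 0, since genes without a difference were not listed.

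Levels of different genes can be set beside each other per length, as normalized count per kilobase of the deposited gene length. In the libraries headed Con, Jund had the highest level of the 7 subunits, 306 ± 7.65 per kilobase (SD, n = 3), above Junb at 188 ± 33.6, and the libraries of the 2 genes did not overlap (299 or more against 226 or less). In the libraries headed Cal of the same table this order was turned, with 2093 ± 227 per kilobase for Junb and 668 ± 113 for Jund (SD, n = 3). Between these 2 in Cal stood the mean of Atf3 at 860 ± 271 per kilobase, whose range overlapped that of Jund. Below Jund came Fos at 374 ± 42.4 and Fosl2 at 334 ± 119, whose ranges overlapped, while Fosb (52.0 ± 20.1) and Fosl1 (40.2 ± 3.41) were lowest. In the libraries headed Con, Fosl2 (73.1 ± 13.5), Atf3 (65.9 ± 14.7) and Fos (57.8 ± 27.2) overlapped, followed by Fosl1 (18.0 ± 2.86) and Fosb (2.81 ± 0.98).

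In the first table Junb led in both groups, at 1872 ± 201 per kilobase in Cal and 1138 ± 267 in Model (SD, n = 3). Jund (163 ± 99.1) and Fos (135 ± 55.4) overlapped in Model, and in Cal Jund (597 ± 102) stood above Fos (334 ± 38.3). Fosl1 at 66.7 ± 6.27 stood above Fosb at 2.37 ± 0.39 in Model, and in Cal Fosb (46.5 ± 18.0) and Fosl1 (35.9 ± 2.96) overlapped. As a share of the summed level per kilobase of the 7 listed subunits, Junb made up 26.3% ± 2.90 in Con and 47.4% ± 3.70 in Cal, and the Fos family together 21.4% ± 1.32 and 18.3% ± 3.06 (SD, n = 3). Of the 5 subunits of the first table the Fos family made up 13.6% ± 2.09 in Model and 14.4% ± 0.91 in Cal. In that table Junb made up 75.7% ± 2.58 in Model and 64.9% ± 2.14 in Cal. The share of the Fos family overlapped between groups in both tables, whereas that of Junb did not in either, being higher in Cal than in Con and lower in Cal than in Model. The overlap in the first table rests on Junb, since without it the Fos family made up 40.0% to 42.0% in Cal and 43.2% to 72.8% in Model, with no overlap. These shares leave out Jun, and the gene lengths are those deposited with the mouse identifiers. The shares of the first table also leave out Fosl2 and Atf3, which it does not list. In the libraries headed Cal of the second table these stood at 334 and 860 per kilobase.

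**Figure D3:**
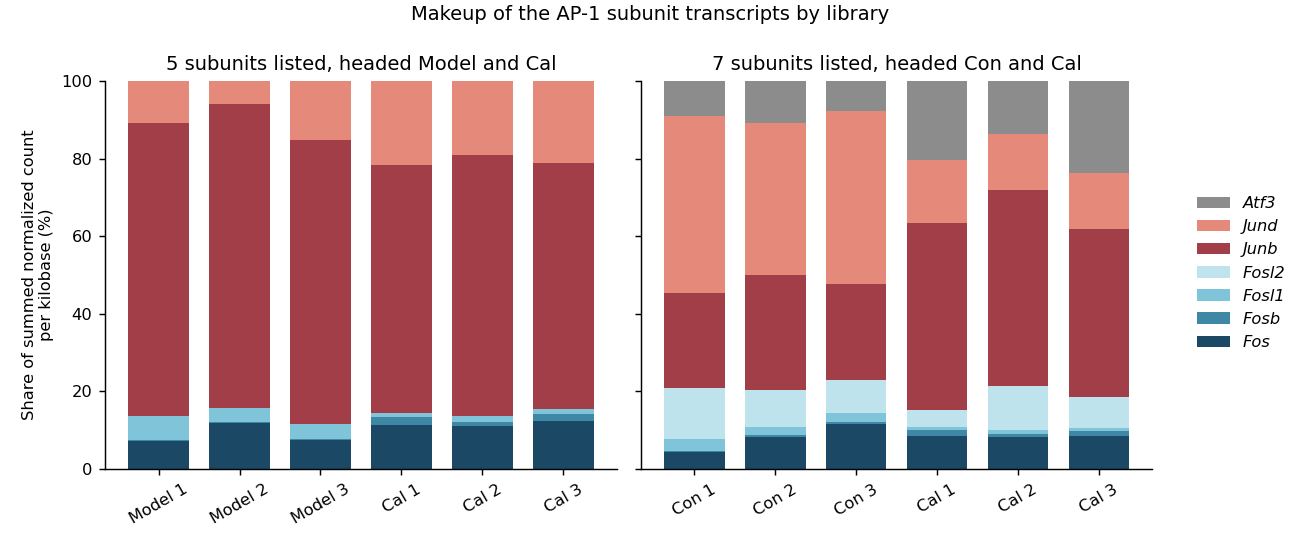
Share of each listed subunit in the summed normalized count per kilobase (percent), one bar per library, for the 5 subunits of the first table (left) and the 7 of the second (right). Junb (dark red) takes 24.6% to 29.6% in the libraries headed Con and 43.4% to 50.6% in those headed Cal on the right.

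Other bZIP factors that pair with Fos, Jun or ATF proteins moved in both directions. Of 26 such genes 14 are listed in Cal over Model, with 1 called higher in Cal and 5 lower. Batf2 (41.9 ± 43.6 in Cal, 765 ± 137 in Model, log2 fold change -4.70, limma adjusted p = 0.000988) and Batf (65.9 ± 17.4 and 173 ± 12.0, log2 fold change -1.41, limma adjusted p = 0.00183), Jun partners of the immune system, were lower in Cal, as were Batf3 (log2 fold change -1.54) and Nfe2, which had at most 1 read in each Cal library and 13 to 24 in Model. Creb1, which binds the cAMP response element, was higher (726 ± 25.5 and 307 ± 142, log2 fold change 1.38, limma adjusted p = 0.00909), and Mafk, a small Maf protein, was lower (1138 ± 145 and 2399 ± 725, log2 fold change -1.03, limma adjusted p = 0.00609). In Cal over Con 15 are listed, with 6 called higher and Maf (-1.54) lower. The leading genes were Maff, another small Maf (2535 ± 160 and 223 ± 16.6, log2 fold change 3.50, limma adjusted p = 1.34e-07), Cebpd (log2 fold change 2.77), Jdp2, a repressor that pairs with Jun (2.02), and Cebpb (1.65). The median log2 fold change of the list was -0.87 in Cal over Model and 0.84 in Cal over Con, beside -0.52 and 0.37 for all listed genes. The shares of all listed genes called were 60.1% (28.4% higher and 31.6% lower) and 29.0% (18.0% higher and 10.9% lower).

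Among 35 kinases upstream of AP-1, 12 are listed in Cal over Model, 5 called higher in Cal and 1 lower. Of all genes listed there, 28.4% were called higher and 31.6% lower, and the list median was 0.82 against -0.52. Map3k11, a JNK pathway kinase, had 1356 ± 166 in Cal and 318 ± 53.2 in Model (log2 fold change 2.09, limma adjusted p = 0.000178), while Map2k1, which encodes MEK1, had 828 ± 46.9 and 2037 ± 478 (log2 fold change -1.27, limma adjusted p = 0.00113). Map2k6 (log2 fold change 1.99), Rps6ka2 (1.59), Mapk3 (1.47), which encodes ERK1, and Map3k14 (1.03) were higher. In Cal over Con 7 are listed, 3 called higher and 0 lower, namely Map3k8 (log2 fold change 2.62), Map3k6 (1.89) and Map3k11 (1.15). Of the 7, 6 had a positive log2 fold change, and the remaining gene, Mapk3, was lower in Cal (-0.47) but not called. In that comparison 18.0% of all listed genes were called higher and 10.9% lower, and the list median was 0.77 against 0.37. Of 9 genes of serum response factor and its cofactors, Elk3, Myocd and Srf are listed in Cal over Model and were called higher in Cal (log2 fold changes of 1.51, 1.22 and 1.21). In Cal over Con, Elk3 was lower (log2 fold change -1.12) and Srf was not called (0.57).

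Genes that restrain MAP kinases followed both directions too. Of 18 such phosphatases and scaffolds 8 are listed in Cal over Model, 4 called higher in Cal (Dusp3, Dusp5, Dusp8 and Dusp10, log2 fold changes of 1.39, 1.21, 1.17 and 1.16) and Spry1 (-1.02) lower. In Cal over Con 8 are listed, with Dusp2, Spry4, Dusp5 and Dusp1 called higher and Dusp6 and Spry1 lower. The list medians were 1.06 in Cal over Model and 1.03 in Cal over Con, beside -0.52 and 0.37 for all listed genes. Called among all listed genes were 60.1% (28.4% higher and 31.6% lower) and 29.0% (18.0% higher and 10.9% lower). Dusp2 had 348 ± 36.2 in Cal and 9.42 ± 2.25 in Con (log2 fold change 5.08, limma adjusted p = 1.3e-06) and Dusp6, an ERK phosphatase, had 175 ± 28.4 and 632 ± 61.5 (log2 fold change -1.86, limma adjusted p = 2.43e-05). Of 8 ubiquitin ligase parts and adaptors acting on Jun, Fbxw7 was called higher in Cal over Model (log2 fold change 1.71), while the other listed genes, Trib1 (-0.66) and Trib2 (-0.55), were not called and the median of the list was -0.55. By limma 0 of the 2 listed were called in Cal over Con, although both passed an adjusted p under 0.05 with no fold change limit (Trib1 0.81 and Trib2 -0.90).

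Textbook AP-1 targets were called higher in Cal over Con and in both directions in Cal over Model, and the genes listed in the tables differ in part. Of 20 targets 14 are listed in Cal over Con, with 9 called higher and 0 lower and a median log2 fold change of 3.50. Ccl2, a monocyte chemokine, had 7562 ± 1134 in Cal and 88.3 ± 40.9 in Con (log2 fold change 6.52, limma adjusted p = 2.75e-06), Ptgs2, which encodes cyclooxygenase-2, had 1119 ± 218 and 31.8 ± 6.06, and Il6 had 518 ± 246 against at most 1 read in each Con library. In Cal over Model 12 are listed, with 4 called higher (Areg, Plau, Tnf and Vegfa) and 7 lower and a median of -1.65. The collagenase gene Mmp13 had 337 ± 76.1 in Cal and 2865 ± 1292 in Model (log2 fold change -3.01, limma adjusted p = 0.00038), Timp1 169 ± 65.5 and 949 ± 277 (-2.52), and Hmox1 258 ± 170 and 1485 ± 1212 (-2.39), whereas Plau, the urokinase gene, had 171 ± 18.0 and 15.7 ± 4.56 (log2 fold change 3.40, limma adjusted p = 0.000158). Beside these medians, those of all listed genes were 0.37 and -0.52. Of all listed genes 29.0% were called in Cal over Con (18.0% higher and 10.9% lower) and 60.1% in Cal over Model (28.4% higher and 31.6% lower). Among targets listed in both tables Tnf had log2 fold changes of 2.04 over Model and 5.79 over Con and Plau of 3.40 and 0.83, the latter not called, whereas Mmp13 had -3.01 and 3.54. Both comparisons share the libraries headed Cal.

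**Figure D4:**
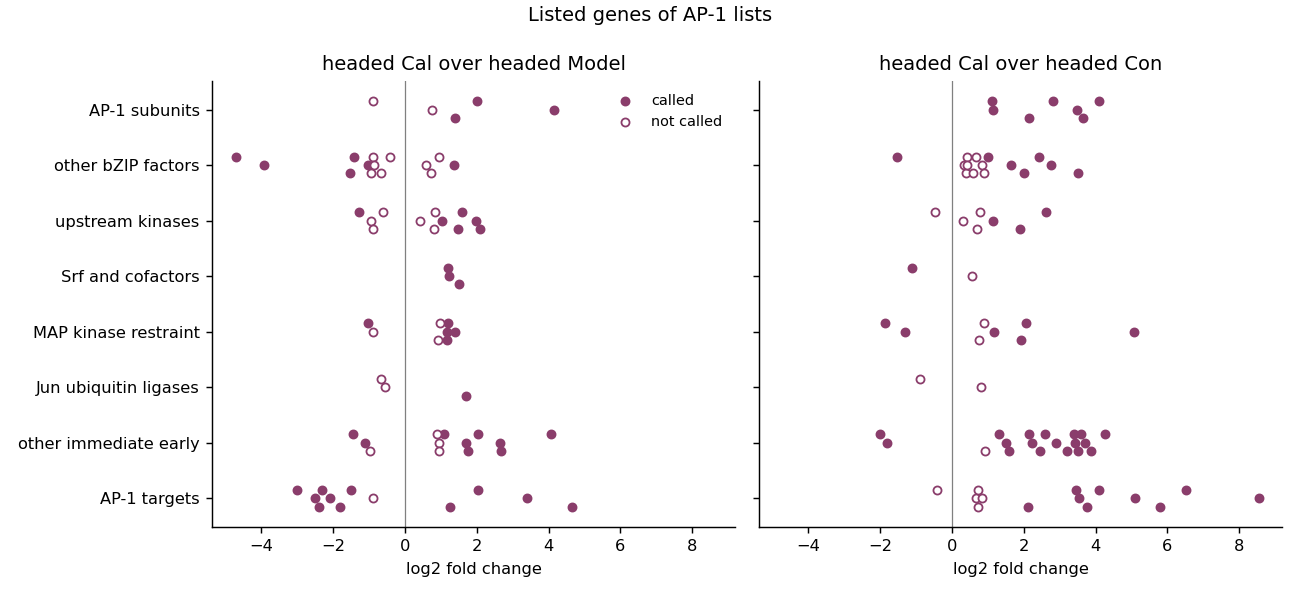
Log2 fold change of each listed gene in 8 gene lists around AP-1, for Cal over Model (left) and Cal over Con (right), with filled points for called genes and open points for listed genes that were not called. The AP-1 targets run to both sides on the left (4 called higher, 7 lower) and to the right side on the right (9 called higher, 0 lower), where the last point is the fitted value of Il6, which had at most 1 read per Con library. Nfe2 and Areg on the left and Egr4 on the right are also fitted against groups of at most 2 reads per library.

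Among 24 other immediate early genes, 13 are listed in Cal over Model with 7 called higher in Cal and 2 lower. In Cal over Con 19 are listed, with 16 called higher and 2 lower. Called among all listed genes were 60.1% in Cal over Model (28.4% higher and 31.6% lower) and 29.0% in Cal over Con (18.0% higher and 10.9% lower). The median log2 fold changes of the list were 1.09 and 2.60, beside -0.52 and 0.37 for all listed genes. Egr3 was among the leading genes in both (log2 fold changes of 4.08 and 3.59), and Klf2 was lower in Cal in both (-1.12 and -1.81), next to Gadd45a in Cal over Model (-1.43) and Klf4 in Cal over Con (-1.997).

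By likeness of pattern over the 9 libraries, measured as the root mean square difference of centred log2 values among 985 other genes listed in both tables, the nearest genes differed for each member. The 3 smallest distances per member were picked, so they lie below the median gene by construction. All genes compared were listed because they differ between the libraries headed Cal and each other group, so shared steps between groups were selected beforehand. Nearest to Fosb were Egr3 (0.46), Cd83 (0.70) and Nr4a1 (0.74), where the median gene was at 2.10. Nearest to Junb were Maff (0.18), Csf1 (0.20) and Zfp36 (0.21), against a median of 1.59. Nearest to Fos were Kdm6b (0.41), Apold1 (0.41) and Tgif2 (0.49), to Fosl1 Slc41a2 (0.18), Rffl (0.20) and Ttpal (0.21), and to Jund Grasp (0.28), Map3k11 (0.32) and Tgfb1 (0.33). Among the members themselves Fos and Junb were nearest (0.66) and Fosb and Fosl1 farthest apart (2.10).

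Markers of several cell types also differed between groups, in directions that varied with the comparison, and their part in the values of the members was not tested. For scale, 60.1% of all listed genes were called in Cal over Model (28.4% higher and 31.6% lower) and 29.0% in Cal over Con (18.0% higher and 10.9% lower). Of 10 neutrophil markers 8 are listed in Cal over Model and were called lower in Cal, with summed normalized counts of 82.1 to 249 in Cal and 1023 to 1094 in Model and Mpo at 0 in Cal, and 2 are listed in Cal over Con (48.5 to 183 in Cal, 13.05 to 28.5 in Con). Of 10 macrophage markers 7 are listed in Cal over Model, 5 called higher in Cal and 1 lower (6919 to 8369 in Cal, 2439 to 3884 in Model), and 1 in Cal over Con, not called. Of 10 endothelial markers 8 are listed in Cal over Model, 4 called higher (13935 to 17023 in Cal, 6371 to 8193 in Model), and 7 in Cal over Con, 2 called lower (14311 to 16291 in Cal, 21489 to 24993 in Con). Of the fibroblast markers 4 of 10 are listed in each comparison (2 called higher in Cal over Model, 1 lower in Cal over Con), and of the smooth muscle and pericyte markers 3 and 5 of 8 (0 and 1 called, the latter lower). Of the T and NK cell markers 2 of 10 are listed in Cal over Model, both lower, of the B cell markers 1 of 6 in each (1 called lower in Cal over Model) and of the erythroid markers 4 of 6 in Cal over Con (1 called higher). The cardiomyocyte markers Myh6 and Ryr2, of 10 in the list, are listed in Cal over Con, neither called, at a summed 360759 to 362832 in Cal and 267192 to 338084 in Con, and none of the 10 in Cal over Model. Of 13 mitochondrially encoded genes mt-Nd4l is listed in both comparisons (8069 ± 1385 in Cal and 2614 ± 1279 in Model, 9026 ± 1570 in Cal and 1878 ± 407 in Con) and mt-Atp6 in Cal over Con, each called higher in Cal.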

How the data were processed

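Libraries were made from heart RNA with the Illumina TruSeq RNA kit, per the labels. By the methods of the study, the authors aligned reads to rat sequences, counted reads per gene and ran DESeq2. All 4288 and 2458 listed genes carry mouse Ensembl identifiers, however, which conflicts with a count on rat genes. Which reference the reads were counted on cannot be told from the sources used here, and its effect on the levels was not tested. The submitters' processing notes list Bowtie 0.12.2, mm8 and mm9 with no role, and the role of each, the counter and the use of strand are not given in the sources used here. The signal that the authors deposited for each library is a gene's count over the size factor of that library, from which whole reads were recovered for 100% of values (within 0.01 of a whole number). The authors also deposited group means, gene length, fold changes, p-values and adjusted p-values. The adjusted p-value was read to check that 0 listed genes reach 0.05, and their fold changes and p-values were not used.

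Samples were grouped by the labels and columns by their headings. Chi-square per degree of freedom between replicate libraries was 10.9 to 80.7, so none was counted as a duplicate. Replicates are different rats by the study's methods. Genes were tested with limma 3.58.1 (trended prior) in R 4.3.3 on log2(normalized count + 1) within each table, over 4288 and 2458 listed genes, and single values with exact permutation tests in scipy 1.17.1. Scripts were tested on simulated data. The fits were repeated with edgeR 4.0.16 and with DESeq2 1.42.0 on the recovered reads, with pseudocounts of 10 and 0.1, after quantile or median-ratio scaling over listed genes, on genes whose mean reached 10, with an adjusted p limit of 0.01, without the fold change limit, with a block for the replicate number, and without single libraries.

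The members, gene lists and tests were chosen with earlier results of these data known. Named from the lists were up to 4 genes per list and comparison with the largest change among called genes whose higher group reached a mean of 100, and further genes named in a sentence on a count were chosen after their values were seen. Maff stands in 2 lists and is counted in both. Promoters came from RefSeq for GRCr8, matched by symbol.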

Additional observations from a re-analysis of the deposited data

How the results depend on the processing

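With no fold change limit, 4272 genes passed the adjusted p in Cal over Model against 2575 called and 2454 in Cal over Con against 712, and all 5 members of the first table passed, as they did the full rule under quantile normalization (5 of 5). Scaling moved the balance of directions: the 2575 calls in Cal over Model were 1219 higher and 1356 lower, against 1393 and 1175 under quantile normalization and 1646 and 1047 under median-ratio scaling, which shifted log2 fold changes by a median of 0.16 and 0.30. In Cal over Con 443 higher and 269 lower became 348 and 387, and 342 and 447, with shifts of -0.31 and -0.28. No member changed sign under any alternative. Leaving out single libraries gave 2344 to 2704 calls in Cal over Model and 679 to 775 in Cal over Con, with 3 and 6 to 7 members called. Setting the common scale by the median ratio of shared genes moved Model over Con values by less than the spread between libraries. Both factors, 0.89429 and 0.89433, come from the same reads of the libraries headed Cal. Their closeness was therefore fixed in advance and does not test the scale. Without the member of the highest level, Junb in each library of the first table, the Fos family share was 41.2% in Cal and 57.2% in Model. With Junb the share was 14.4% in Cal and 13.6% in Model, where the groups overlapped. This share covers Fos, Fosb and Fosl1 alone, since the first table does not list Fosl2. In the second table the Fos family share was 35.0% in Cal without Junb and 37.7% in Con without Jund, which leave out different genes and cannot be compared.

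The replicate numbers belong to different animals, and the deviations of same-numbered libraries correlated at -0.12 to 0.11 in Cal over Model and -0.14 to -0.02 in Cal over Con. With the replicate number as a block, 2574 and 713 genes were called, with the members called as before (3 and 7). Among the members, depth limits Fosb most, with 12 to 25 reads per library in the lower groups.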
